A study of Mus musculus with 8 samples.

Results

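The comparison described here set 3 BV2 libraries treated with 10panx1 against 3 control libraries at 9 h, across all genes. They were taken by the titles of the samples and made up 6 of the 8 libraries of the series; the remaining 10panx1 library and control library carry a 6 h title. The 6 h library with 10panx1 in its title has a treatment label that names no peptide, so wherever 6 h values are given its group is that of the title. BV2 is an immortalized mouse microglial cell line of wild-type genotype per the labels. The 10panx1 libraries came from cells put through oxygen-glucose deprivation and reperfusion with the peptide 10panx1, and the controls from the same deprivation without it. Per the protocol, deprivation meant 1% oxygen and 5% carbon dioxide in glucose-free medium for 9 h, followed by recovery in normal medium. What the 6 h and 9 h of the titles count is not stated. The control titles name no peptide, and so block of the channel and any other action of a peptide in the medium cannot be told apart. Replicates carry numbers and no statement of separate cultures, so the p-values below rest on the spread among 3 libraries a group, and that spread may be technical.

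Microglia are the resident macrophages of the brain, and in stroke models they respond to loss of oxygen and glucose with cytokine release, migration and phagocytosis. Pannexin 1, encoded by Panx1, forms large-pore channels in the plasma membrane through which cells release ATP. The peptide 10panx1 copies part of an extracellular loop of the channel and blocks it. The series asks which transcripts accompany a higher level of Src, a membrane-bound tyrosine kinase, once Panx1 is inhibited.

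The tables held 56859 genes, of which 13392 had enough counts to test. Libraries at 9 h held between 19146009 and 23164860 counts, and levels are given as counts per 1000000 (CPM) after TMM scaling, so that 3 counts corresponded to 0.13 to 0.157 CPM. The leading principal component took 38.8% of the variance and separated the groups, with 10panx1 replicates 1, 2 and 3 at 0.182, 0.561 and 0.422 and control replicates 1, 2 and 3 at -0.482, -0.276 and -0.408. The next component, with 20.2%, set control replicate 3 at 0.723 apart from control replicate 1 at -0.606. Of 12 microglia or macrophage markers 11 were tested, with a summed level of 1659 to 1730 CPM in 10panx1 and 1599.6 to 1672 CPM in control libraries. Among them Csf1r, Cx3cr1 and Ptprc rose and Tyrobp fell. In bulk libraries such as these, fewer cells of a type and less RNA per cell cannot be told apart. P2ry12, a marker of resting brain microglia, was near the level of 3 counts, at 0.0947 to 0.484 CPM with 10panx1 and 0.141 to 0.416 CPM in controls. The 13 hepatocyte markers, of which 2 were tested and none was called, summed to 115 to 125 CPM in the 10panx1 libraries, 104 and 106 CPM in control replicates 1 and 2, and 318 CPM in control replicate 3. Trf alone was at 113, 121 and 114 CPM with 10panx1 and 101, 104 and 106 CPM in controls. It made up nearly the whole sum in every library but control replicate 3. Fgb and Hpx, which encode plasma proteins made by liver, were at 29.1 and 154 CPM in control replicate 3, against 0 CPM for Fgb and at most 0.465 CPM for Hpx in the other 5 libraries. Fibroblast markers summed to 0.71 to 1.54 CPM with 10panx1, at most 1.69 CPM in control replicates 1 and 2 and 40.6 CPM in control replicate 3, with Col1a1 at 28.7 CPM there and not called (edgeR, adjusted p = 0.053). The muscle marker Acta1 was at 0.372, 0.284 and 0.22 CPM with 10panx1 and 0.838, 0.516 and 2.03 CPM in controls and was called lower (edgeR, adjusted p = 0.0331). The part of such RNA in the results was not tested. Of 82 genes that stood out in control replicate 3 alone, 1 was called, Serpinc1. How many of the 82 had enough counts to test is not given. Genes not tested, such as Fgb and Hpx, could not be called.

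With 10panx1 a broad set of small differences appeared. At a Benjamini-Hochberg adjusted p under 0.05 in the quasi-likelihood test of edgeR, 1233 of 13392 tested genes were called (9.21%), of which 678 were higher (5.06%) and 555 lower (4.14%) with 10panx1. The median size was 1.234-fold among genes that rose and 1.263-fold among genes that fell. A size of at least 1.5-fold was reached by 88 genes that rose and 100 that fell, and at least 2-fold by 19 and 26. Of the called genes, 1218 had all 3 10panx1 libraries on one side of all 3 controls, and 15 overlapped. Over all tested genes, 1900 were higher and 1986 lower with no overlap, 29% in all, beside the 9.21% called. The summed gain of the genes that rose was 21195 CPM, and the levels of the genes that fell dropped by 7486 CPM in sum. The number of calls changed with each library left out. With control replicate 1, 2 or 3 left out it was 598, 695 or 841. With 10panx1 replicate 1, 2 or 3 left out it was 1433, 676 or 600. Each such fit has only 2 libraries in 1 group, so a smaller group and reliance on the library left out cannot be told apart.

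**Figure D1:**
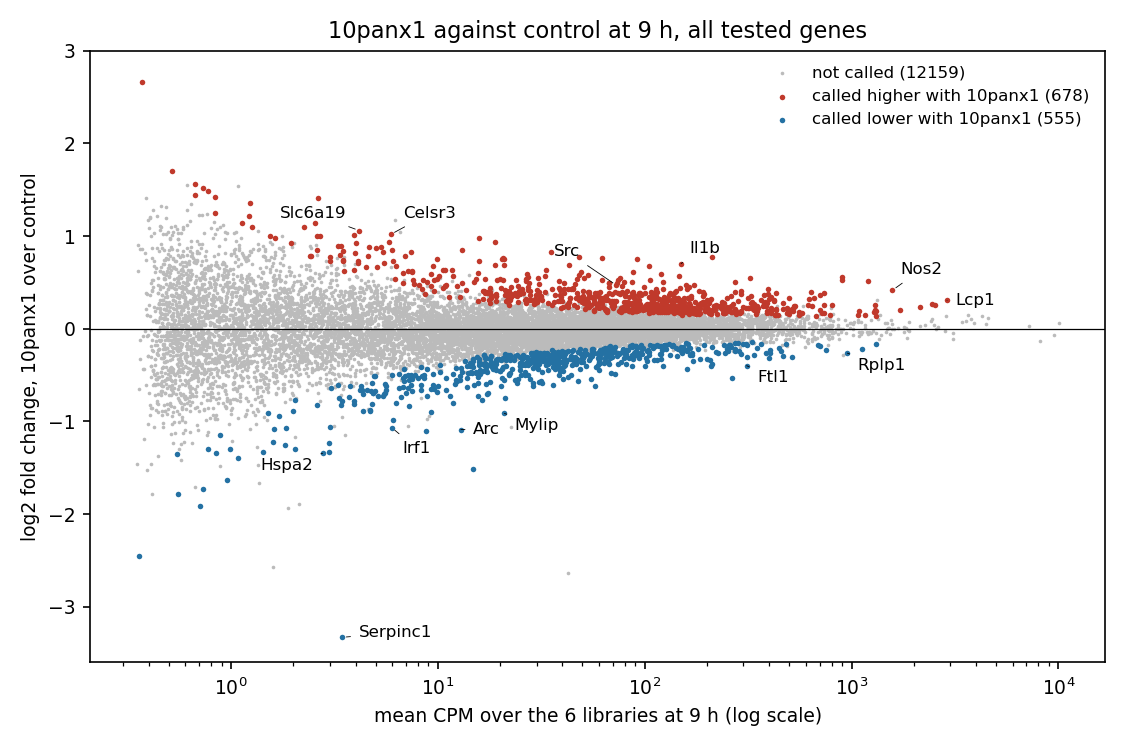
Log2 fold change, 10panx1 over control, against mean CPM over the 6 libraries at 9 h on a log scale, 1 point per tested gene. The 678 genes called higher lie mainly at the right, where genes are abundant, and Serpinc1, low at the bottom, has a log2 fold change of -3.33 that rests on control replicate 3.

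Panx1 itself was at 32.9, 34.9 and 27.4 CPM with 10panx1 and at 33.6, 32.7 and 30.2 CPM in controls. The groups overlapped, and the 95% interval of the log2 fold change, -0.02, ran between -0.21 and 0.17 (edgeR, adjusted p = 0.922). Src was at 74.9, 92.7 and 86.4 CPM with 10panx1 and at 54.4, 62.1 and 67.1 CPM in controls. Every 10panx1 library lay above every control, and the log2 fold change was 0.47 (SE 0.0829, edgeR, adjusted p = 0.0035). Src was not called by limma on the TPM values, with adjusted p from 0.0505 to 0.15, nor against a fold of 1.2 by edgeR's glmTreat, with an adjusted p of 0.218. Src spans 157260364 to 157313782 of chromosome 2 and Panx1 14913424 to 14956774 of chromosome 9, as the table lists them with no build named.

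The smallest p-values belonged to changes of moderate size with little spread between replicates. Among the 8 rises with the smallest p were the cytokine genes Il1b and Il6, and 2 receptors, Gpr35, a G protein-coupled receptor for metabolites, and Csf2rb, the shared beta chain of the GM-CSF receptor. Gpr35 was at 61.3, 65.2 and 65.8 CPM with 10panx1 and 41.9, 44.4 and 41.9 CPM in controls, a log2 fold change of 0.59 (SE 0.0614, edgeR, adjusted p = 0.000441). The control values lay within 3 CPM of each other, and each 10panx1 library was well above them. Csf2rb was at 171, 178 and 165 CPM with 10panx1 and 127, 126 and 125 CPM in controls (log2 fold change 0.44). Il1b was at 173, 201 and 183 CPM with 10panx1 and 108, 127 and 107 CPM in controls (0.70), and Il6 was at 23.4, 25.7 and 27.3 CPM with 10panx1 and 14.2, 15.1 and 16.3 CPM in controls (0.75). The other 4 rises were those of Dab2, Abr, Kif21b and Dip2a. Dab2, an endocytic adaptor, was at 177, 201 and 191 CPM with 10panx1 and 137, 144 and 136 CPM in controls (0.45). Abr, which regulates small GTPases of the cytoskeleton, was at 457, 465 and 445 CPM with 10panx1 and 366, 360.2 and 356 CPM in controls (0.34). Kif21b, a kinesin motor, was at 141, 141 and 139.7 CPM with 10panx1 and 97.1, 105 and 111 CPM in controls (0.43), and Dip2a had a log2 fold change of 0.82. All 8 were called in each of the 6 fits without 1 library.

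The 8 falls with the smallest p were Mylip, Arc, Ftl1, Fzd5, Klf10, Baiap2, Ppif and Irf1. Mylip, a ubiquitin ligase that marks the LDL receptor for degradation, was at 16.5, 14.3 and 12.9 CPM with 10panx1 and 29.5, 26.4 and 26.3 CPM in controls. Its log2 fold change was -0.91 (SE 0.096, edgeR, adjusted p = 0.000441), with no overlap. Arc, an immediate early gene best known from neurons, was at 9.72, 6.77 and 8.31 CPM with 10panx1 and 18.5, 16.5 and 17.7 CPM in controls (-1.09). Klf10, a transcription factor induced by TGF-beta, was at 16.7, 15.2 and 15.8 CPM with 10panx1 and 25.1, 23.6 and 24.4 CPM in controls (-0.61). These 3 genes differed by more than the whole range of either group. Fzd5, a receptor for Wnt proteins, was at 63.6, 54.9 and 60.6 CPM with 10panx1 and 86.8, 83.9 and 80.9 CPM in controls (-0.49). Baiap2, which acts in membrane protrusion, was at 48.1, 40.5 and 45.3 CPM with 10panx1 and 67.1, 61 and 66.9 CPM in controls (-0.54). Ppif, the mitochondrial cyclophilin that regulates the permeability transition pore, was at 27.6, 25.3 and 23.1 CPM with 10panx1 and 38, 39.2 and 37 CPM in controls (-0.59). Ftl1, the ferritin light chain, was at 283, 260 and 263 CPM with 10panx1 and 362, 364 and 335 CPM in controls (-0.40), a gene with near-identical pseudogene copies whose shared reads may be counted either way. All 8 falls were called in each of the 6 fits without 1 library.

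**Figure D2:**
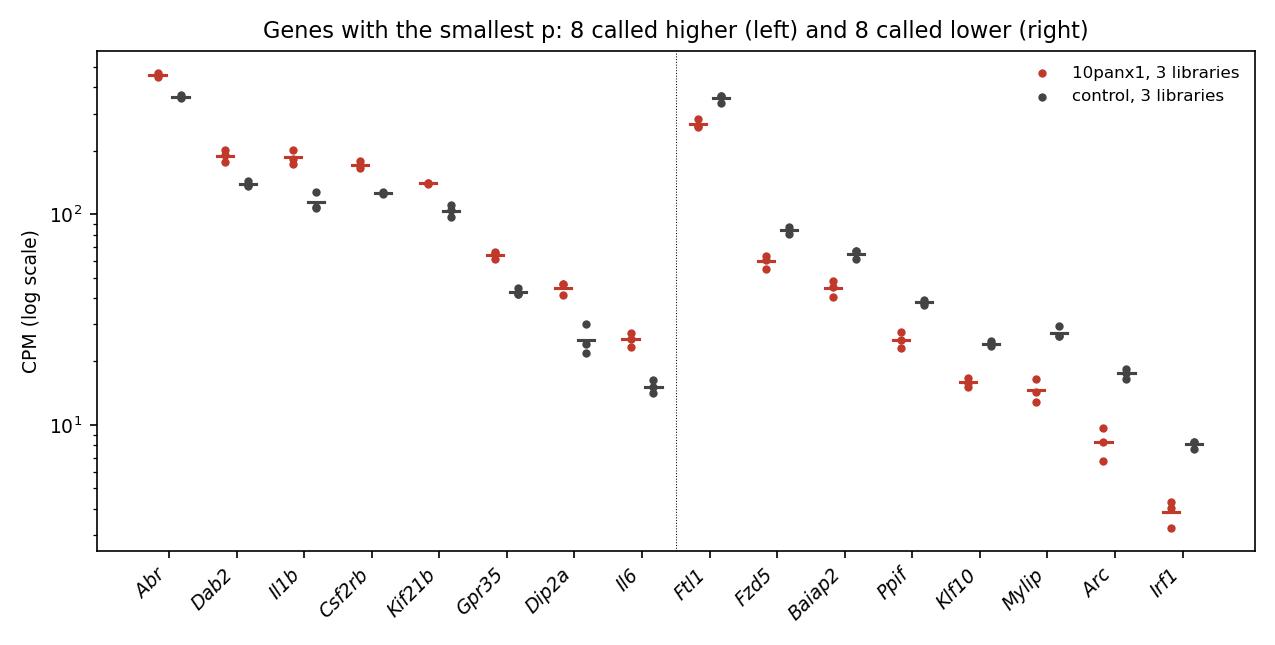
CPM on a log scale in each library for the 8 rises and the 8 falls with the smallest p, 10panx1 left of control for each gene. Points are libraries (3 per group) and bars are group means; no gene has overlapping groups, from Abr at 445 to 465 CPM with 10panx1 to Irf1 at 3.25 to 4.33 CPM with 10panx1.

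The promoters of genes with the smallest p are shown because 2 short motifs were common in those that fell. The table of RefSeq promoters (build GRCm38.p6, from 250 bases before to 50 after the start of transcription) held 6 of the 8 falls with the smallest p. The windows are 300 bases: chr13:45389492-45389791 on the plus strand for Mylip, chr11:53769764-53770063 on the plus strand for Irf1, chr7:45459837-45460136 on the minus strand for Ftl1, chr1:64737701-64738000 on the minus strand for Fzd5, chr11:119942842-119943141 on the plus strand for Baiap2 and chr14:25693920-25694219 on the plus strand for Ppif. Capitals mark GGGCGG (the GC box, bound by Sp family factors), CCAAT (bound by NF-Y) and TATAAA (the TATA box) on either strand.
Mylip: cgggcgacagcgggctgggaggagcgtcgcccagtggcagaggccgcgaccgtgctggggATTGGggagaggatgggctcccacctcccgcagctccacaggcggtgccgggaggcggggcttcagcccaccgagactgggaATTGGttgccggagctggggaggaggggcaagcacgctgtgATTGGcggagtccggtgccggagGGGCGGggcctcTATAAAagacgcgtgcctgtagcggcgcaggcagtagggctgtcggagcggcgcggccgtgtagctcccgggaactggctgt
Irf1: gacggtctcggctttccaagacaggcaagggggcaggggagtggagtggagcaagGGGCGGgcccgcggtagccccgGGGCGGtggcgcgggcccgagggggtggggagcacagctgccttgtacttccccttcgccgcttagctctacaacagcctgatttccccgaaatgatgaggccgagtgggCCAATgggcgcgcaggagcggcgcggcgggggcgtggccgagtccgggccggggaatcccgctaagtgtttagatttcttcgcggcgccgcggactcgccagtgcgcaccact
Ftl1: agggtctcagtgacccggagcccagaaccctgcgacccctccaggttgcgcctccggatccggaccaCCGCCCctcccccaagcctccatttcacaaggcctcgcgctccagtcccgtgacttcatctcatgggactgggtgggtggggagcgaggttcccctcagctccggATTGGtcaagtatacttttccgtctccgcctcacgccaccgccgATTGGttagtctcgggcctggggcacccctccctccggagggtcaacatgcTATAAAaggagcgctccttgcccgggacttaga
Fzd5: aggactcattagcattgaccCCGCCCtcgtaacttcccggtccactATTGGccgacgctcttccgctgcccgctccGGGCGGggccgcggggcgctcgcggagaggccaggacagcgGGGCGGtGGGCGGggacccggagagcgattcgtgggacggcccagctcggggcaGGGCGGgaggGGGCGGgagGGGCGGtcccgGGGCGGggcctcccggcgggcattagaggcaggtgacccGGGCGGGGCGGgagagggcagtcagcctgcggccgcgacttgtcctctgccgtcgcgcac
Baiap2: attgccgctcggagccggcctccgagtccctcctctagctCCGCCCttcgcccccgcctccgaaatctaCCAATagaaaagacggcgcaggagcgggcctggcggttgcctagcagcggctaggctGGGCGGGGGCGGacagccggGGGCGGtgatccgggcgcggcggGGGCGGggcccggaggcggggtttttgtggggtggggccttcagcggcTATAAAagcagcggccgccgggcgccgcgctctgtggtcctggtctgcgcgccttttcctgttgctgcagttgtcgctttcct
Ppif: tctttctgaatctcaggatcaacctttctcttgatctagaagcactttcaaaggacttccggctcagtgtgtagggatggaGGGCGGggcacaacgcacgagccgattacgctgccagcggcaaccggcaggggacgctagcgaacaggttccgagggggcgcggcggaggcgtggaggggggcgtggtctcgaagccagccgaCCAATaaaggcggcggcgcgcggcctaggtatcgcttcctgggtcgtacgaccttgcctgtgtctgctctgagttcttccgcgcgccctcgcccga
Each of these 6 windows holds at least 1 GC box and at least 1 CCAAT box. Fzd5 has 10 GC boxes, Baiap2 has 5, and Mylip has 3 CCAAT boxes. Mylip, Ftl1 and Baiap2 also hold a TATA box.

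Of the 8 rises with the smallest p, 6 had a window in the table. Il1b, Gpr35, Dab2 and Abr hold neither box, Il6 holds 1 CCAAT box, and Dip2a holds 5 GC boxes and 2 CCAAT boxes. The windows of 4 of them are printed: chr2:129371090-129371389 on the minus strand for Il1b, chr1:92972869-92973168 on the plus strand for Gpr35, chr5:30012864-30013163 on the plus strand for Il6 and chr15:6299539-6299838 on the plus strand for Dab2. Those of Abr and Dip2a are not printed, and all 4 printed lack a GC box. The window listed first for each gene was used, and no difference between rises and falls is drawn from these few. Capitals are as above.
Il1b: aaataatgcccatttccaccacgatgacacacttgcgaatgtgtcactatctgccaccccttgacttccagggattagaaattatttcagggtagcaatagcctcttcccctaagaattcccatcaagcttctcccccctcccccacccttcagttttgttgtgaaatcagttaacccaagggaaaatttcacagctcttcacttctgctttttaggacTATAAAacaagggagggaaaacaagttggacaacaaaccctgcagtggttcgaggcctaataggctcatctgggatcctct
Gpr35: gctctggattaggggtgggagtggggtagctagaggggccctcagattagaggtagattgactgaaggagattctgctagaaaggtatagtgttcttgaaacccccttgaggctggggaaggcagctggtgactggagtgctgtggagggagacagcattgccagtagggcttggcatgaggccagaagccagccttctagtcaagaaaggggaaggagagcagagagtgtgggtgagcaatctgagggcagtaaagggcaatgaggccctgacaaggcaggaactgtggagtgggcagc
Il6: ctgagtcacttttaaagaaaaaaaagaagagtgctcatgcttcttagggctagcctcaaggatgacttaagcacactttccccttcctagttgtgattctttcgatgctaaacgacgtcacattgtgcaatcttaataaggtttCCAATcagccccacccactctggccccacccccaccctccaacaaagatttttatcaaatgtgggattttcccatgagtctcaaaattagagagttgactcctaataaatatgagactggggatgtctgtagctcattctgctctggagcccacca
Dab2: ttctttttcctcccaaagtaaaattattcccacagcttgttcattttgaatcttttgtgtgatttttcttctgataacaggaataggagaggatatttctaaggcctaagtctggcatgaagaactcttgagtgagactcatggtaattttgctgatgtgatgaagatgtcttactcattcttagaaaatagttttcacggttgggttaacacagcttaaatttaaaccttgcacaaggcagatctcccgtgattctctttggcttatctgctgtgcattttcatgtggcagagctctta
The window of Src, chr2:157424043-157424342 on the plus strand, holds 2 GC boxes and no CCAAT box.

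The same count was taken over all protein-coding genes, using the window listed first for each gene. Windows were found for 422 of 513 genes that fell (82.3%) and 9214 of 11399 tested genes (80.8%). CCAAT was in 51.4% of the windows of genes that fell, against 39.4% of all windows. GGGCGG was in 80.1% against 64.4%, and both together were in 42.7% against 25.1%. TATAAA was in 11.1% against 6.95%. Other motifs differed by fewer percentage points: CACGTG, the E-box, was in 10.9% against 10.3%, TGACGTCA, the cyclic AMP response element, in 3.32% against 3.40%, TGANTCA, the AP-1 site, in 6.64% against 5.02%, and CCGGAAG, an ETS site, in 16.4% against 19.3%. In proportion to the share in all windows, the gap of the AP-1 site was no smaller than that of CCAAT or GGGCGG. The windows of genes that fell had a median GC content of 63.8%, against 60.7% in all windows, and the shares were therefore also taken within 3 ranges of GC content. In windows of 57.3% to 65% GC, CCAAT was in 58.7% of genes that fell against 41.7% of all, and in windows of at least 65.3% GC in 45% against 31.5%. In windows of at most 57% GC the shares were 51.7% and 44.6%. The gap in GGGCGG was 49.4% against 34.2% in windows of at most 57% GC, and smaller in the other 2 ranges, at 80% against 70.7% from 57.3% to 65% GC and 95% against 90% from 65.3% GC. For the genes that rose only 487 of 640 had a window (76.1%), under the 80% required for such a count, so the check is void for them and no share is given. These shares are a description of letters and carry no test.

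The largest rises and falls by fold were taken among called genes with no overlap whose counts averaged 50 or more. Clone and pseudogene symbols were left out of this choice and are described apart. Slc6a19, a transporter of neutral amino acids, was at 4.47, 7.06 and 5.36 CPM with 10panx1 and 2.42, 2.77 and 2.91 CPM in controls, a log2 fold change of 1.06 (SE 0.194, edgeR, adjusted p = 0.00433). Celsr3, an atypical cadherin of axon guidance, was at 7.21, 9.61 and 7.03 CPM with 10panx1 and 4.23, 4.41 and 3.06 CPM in controls (1.02). Ksr2, a scaffold of the RAF, MEK and ERK kinases, was at 4.79, 6.25 and 4.75 CPM with 10panx1 and 1.91, 2.72 and 3.22 CPM in controls (1.01). In these 3 genes 10panx1 replicate 2 was the highest library. Kcnk2, the mechanosensitive potassium channel TREK-1, was at 12.9, 19.8 and 17.6 CPM with 10panx1 and 8.28, 10.8 and 8.83 CPM in controls (0.85). Il12rb1, a chain shared by the interleukin 12 and 23 receptors, was at 6.47, 8.19 and 8.40 CPM with 10panx1 and 4.65, 3.56 and 4.62 CPM in controls (0.85). Dhrs3, which reduces retinal to retinol, was at 20.8, 28.7 and 25.3 CPM with 10panx1 and 11, 14.8 and 13.3 CPM in controls (0.94), and Serpinb2, the plasminogen activator inhibitor 2, was at 17.4, 25.3 and 20.5 CPM with 10panx1 and 8.52, 13.3 and 10.1 CPM in controls (0.98). Arg1, arginase 1, a marker of alternative macrophage activation, was at 3.77, 6.20 and 3.34 CPM with 10panx1 and 1.81, 2.81 and 2.55 CPM in controls. Its log2 fold change of 0.89 (edgeR, adjusted p = 0.0364) had an adjusted p of 0.141 without control replicate 1, 0.054 without control replicate 2, 0.0699 without control replicate 3 and 0.182 without 10panx1 replicate 2. Of the 15 rises that the rule took by fold, 8 were called in each fit without 1 library, among them all those above but Arg1.

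The largest falls by fold under the same rule began with Hspa2, Ccno and Trim36. Hspa2, an HSP70 chaperone best known from the testis, was at 1.58, 1.85 and 1.27 CPM with 10panx1 and 5.12, 2.86 and 3.95 CPM in controls, a log2 fold change of -1.34 (SE 0.248, edgeR, adjusted p = 0.00459). Ccno, cyclin O, was at 1.95, 1.61 and 1.80 CPM with 10panx1 and 4.47, 4.17 and 3.95 CPM in controls (-1.23). Trim36, a ubiquitin ligase, was at 6.61, 4.36 and 5.63 CPM with 10panx1 and 12.7, 13.3 and 9.82 CPM in controls (-1.11). No 10panx1 library of these genes reached the lowest control. Irf1, which drives transcription of interferon-regulated genes, was at 4.33, 4.03 and 3.25 CPM with 10panx1 and 8.28, 7.69 and 8.31 CPM in controls (-1.07). Sp4, of the Sp family, was at 4.14, 3.41 and 4.62 CPM with 10panx1 and 7.49, 7.31 and 9.40 CPM in controls (-0.99). Rhpn2 was at 6.09, 7.06 and 6.29 CPM with 10panx1 and 11.8, 10.5 and 14 CPM in controls (-0.89). The remaining falls taken by fold included Gpr155, Zfp956 and the co-chaperone gene Dnajc12, with log2 fold changes of -0.88, -0.87 and -0.83. Each gene named in this paragraph was called in all 6 fits without 1 library. No gene was at 3 or fewer counts in sum in one group and at 10 or more in every library of the other, so no transcript was seen in 1 group alone by that rule.

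The 10 largest gains in CPM, as distinct from fold, were those of Lcp1, Odc1, Nos2, Ptgs2, Il1rn, Ero1a, Mmp12, Myh9, Actg1 and Acod1. Lcp1, the leukocyte actin-bundling protein L-plastin, was at 3016, 3345 and 3236 CPM with 10panx1 and 2498, 2668 and 2592 CPM in controls, a gain of 613 CPM and a log2 fold change of 0.31 (SE 0.0466, edgeR, adjusted p = 0.00184). Nos2, the inducible nitric oxide synthase, was at 1569, 1958 and 1878 CPM with 10panx1 and 1268, 1384 and 1399 CPM in controls, a gain of 452 CPM. Mmp12, the macrophage elastase, was at 904, 1206 and 1098 CPM with 10panx1 and 619.6, 811 and 754 CPM in controls, a gain of 341 CPM. Myh9, the non-muscle myosin IIA heavy chain, was at 987, 1174 and 1011 CPM with 10panx1 and 694, 696 and 814 CPM in controls, a gain of 323 CPM. Il1rn, the interleukin 1 receptor antagonist, gained 428 CPM and Ero1a, a disulfide oxidase of the endoplasmic reticulum, 351 CPM. In each of these 6 genes the groups did not overlap, and the call was kept in each fit without 1 library. The other 4 of the 10 largest gains were lost in some of these fits. Odc1, the first enzyme of polyamine synthesis, gained 459 CPM, Ptgs2, cyclooxygenase 2, gained 447 CPM, Actg1, gamma actin, gained 237 CPM and Acod1, which makes itaconate, gained 228 CPM. Without 10panx1 replicate 3 their adjusted p-values by edgeR were 0.0842, 0.186, 0.111 and 0.0562. Without control replicate 1 they were 0.0694, 0.158, 0.0953 and 0.0686, while without control replicate 3 those of Ptgs2, Actg1 and Acod1 were 0.0519, 0.0696 and 0.0688. Without 10panx1 replicate 2 the adjusted p by edgeR was 0.0544 for Odc1, 0.094 for Ptgs2 and 0.0681 for Acod1. Together the 10 genes made up 18.3% of the summed gain.

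Among the 10 largest losses in CPM were those of Rplp1, Calr, Rps18, Tubb4b, Rps29 and Lyz2. Rplp1, an acidic ribosomal protein, was at 932, 809 and 861 CPM with 10panx1 and 999, 1073 and 1052 CPM in controls, a log2 fold change of -0.26 (SE 0.0522, edgeR, adjusted p = 0.0066). Rps29 was at 229, 181 and 238 CPM with 10panx1 and 292, 340.2 and 302 CPM in controls (-0.53), and Rps18 was at 718, 671 and 684 CPM with 10panx1 and 787, 841 and 809 CPM in controls (-0.23). These ribosomal protein genes have pseudogene copies, and how shared reads were counted is not given in the sources used here. Calr, the chaperone calreticulin, was at 1085, 1002 and 1042 CPM with 10panx1 and 1215, 1204 and 1216 CPM in controls (-0.22). Tubb4b, a beta tubulin, was at 512, 435 and 433 CPM with 10panx1 and 603, 547 and 558 CPM in controls (-0.31). These 5 genes were called in all 6 fits without 1 library. Lyz2, the macrophage lysozyme, had a log2 fold change of -0.19 and was called in only 1 of the 6 fits without a library, with edgeR's adjusted p from 0.0572 to 0.109 in the other 5.

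Of 13 mitochondrially encoded genes tested, 3 rose (23.1%) and none fell, beside 5.06% and 4.14% of all tested genes, and these 3 were named after their values were seen: mt-Rnr2, the large ribosomal RNA, and mt-Nd1 and mt-Nd2, subunits of complex I. They follow each other on the mitochondrial genome, at 1094 to 2675, 2751 to 3707 and 3914 to 4951 in the table. mt-Rnr2 was at 261, 248 and 291 CPM with 10panx1 and 129.7, 148 and 191 CPM in controls, a log2 fold change of 0.77 (SE 0.102, edgeR, adjusted p = 0.00124). mt-Nd2 was at 409.8, 476 and 477 CPM with 10panx1 and 320, 325 and 369 CPM in controls (0.43), and mt-Nd1 was at 708, 833 and 856 CPM with 10panx1 and 645, 681 and 684 CPM in controls (0.25). The first 2 kept the call without any 1 library, and mt-Nd1 had an adjusted p of 0.0936 by edgeR without 10panx1 replicate 3 and kept it in 2 of 6 such fits. mt-Rnr1, the small ribosomal RNA next to mt-Rnr2, was at 276, 245 and 336 CPM with 10panx1 and 311, 314 and 302 CPM in controls, and its groups overlapped (-0.11, edgeR, adjusted p = 0.444). mt-Co1, the most abundant of the 13, was at 7448, 7450.4 and 8361 CPM with 10panx1 and 8534, 8538 and 8434 CPM in controls and was not called (-0.13, edgeR, adjusted p = 0.0956). Copies of mitochondrial sequence lie in the nuclear genome, and how reads shared with them were counted is not given in the sources used here.

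**Figure D3:**
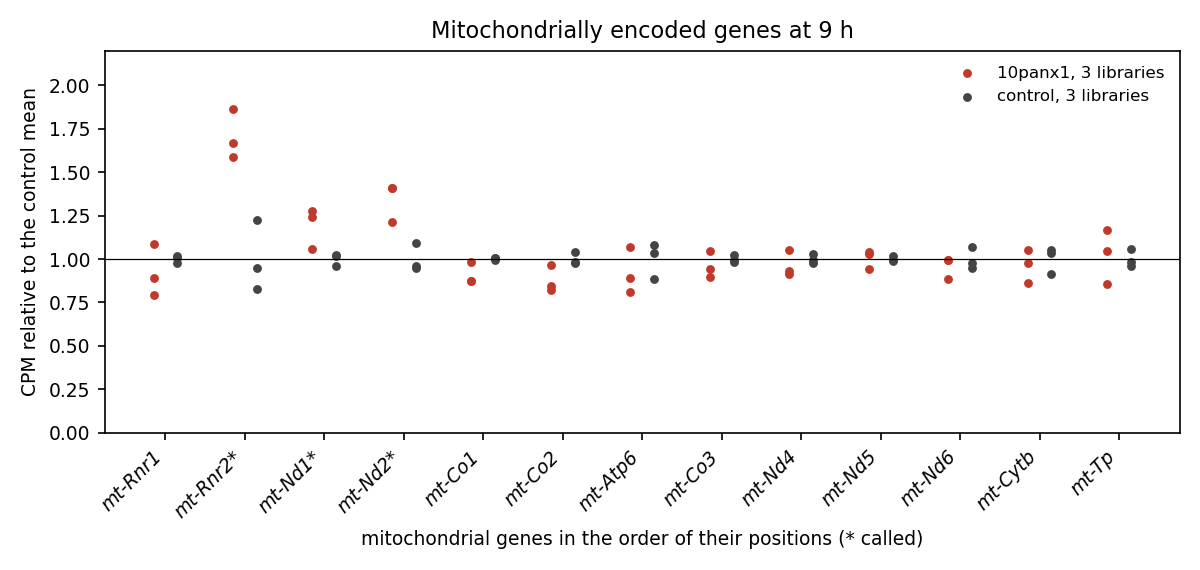
CPM relative to the control mean for 13 mitochondrially encoded genes, in the order of their positions, 10panx1 left of control, 1 point per library (3 per group); an asterisk marks a called gene. mt-Rnr2, mt-Nd1 and mt-Nd2 lie above the line in all 3 10panx1 libraries and the other 10 genes are not called.

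Of 790 long noncoding RNAs tested, 21 rose (2.66%) and 13 fell (1.65%), against 5.61% and 4.50% of 11399 protein-coding genes. Mir142hg, the host transcript of the haematopoietic microRNA miR-142, was at 7.68, 7.10 and 8.09 CPM with 10panx1 and 2.70, 3.84 and 5.51 CPM in controls, a log2 fold change of 0.93 (SE 0.198, edgeR, adjusted p = 0.00964). Its controls spread over a wider range than its 10panx1 libraries. The lncRNA F730311O21Rik was at 8.70, 9.61 and 8.05 CPM with 10panx1 and 5.12, 5.67 and 4.52 CPM in controls (0.78), and Gm38190 fell to 2.51, 1.09 and 1.45 CPM with 10panx1, against 5.35, 3.42 and 3.95 CPM in controls (-1.33). Gm22748, annotated as a small nucleolar RNA of 136 bases, lies within Odc1 on the same strand, so its reads and those of Odc1 cannot be told apart. Gm22748 was at 3.26, 4.36 and 3.87 CPM with 10panx1 and 1.58, 0.984 and 1.77 CPM in controls (1.41). All 4 were called in each fit without 1 library.

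Host genes of small nucleolar RNAs carry in their introns the RNAs that guide modification of ribosomal RNA. Of 15 tested, 5 fell (33.3%) and none rose, beside 4.14% of all genes that fell, and 14 of the 15 had a negative log2 fold change, with a median of -0.21. Snhg8 was at 11.5, 11.9 and 12.4 CPM with 10panx1 and 19.1, 19.1 and 16.1 CPM in controls (-0.60, SE 0.0967, edgeR, adjusted p = 0.0022). Snhg12 was at 24.5, 18.3 and 25 CPM with 10panx1 and 33.4, 33.9 and 31.7 CPM in controls (-0.54). Epb41l4aos, Gas5 and Snhg1 had log2 fold changes of -0.34, -0.26 and -0.25. The number that fell ran from 2 to 5 over the 6 fits without 1 library, and was 3 once each library's trend with transcript length was removed. The median at 6 h, where each group has 1 library, was -0.16. Of 725 processed pseudogenes 22 fell (3.03%) and 5 rose (0.69%), both under the 4.14% and 5.06% over all tested genes. Of the 22, 8 carry a ribosomal protein symbol, and Rps3a2, also with such a symbol, was among those that rose (0.31). How many of the 725 carry such a symbol is not given. Rps19-ps6, which fell, was at 8.14, 7.96 and 6.59 CPM with 10panx1 and 10.2, 10.6 and 44.8 CPM in controls. Its log2 fold change of -1.52 rested on control replicate 3, without which it was -0.46 (edgeR, adjusted p = 0.0638), and the call was also lost without any 1 of the 10panx1 libraries.

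Gene families were read from symbols, in 71 sets that together held 2853 tested genes. Of the 70 with at least 8 tested members, 11 had at least 3 members called higher and none lower, 4 had at least 3 lower and none higher, and 4 had none called. Families are described by their counts beside the shares over all tested genes, 5.06% higher and 4.14% lower, and were not tested as sets. Members beyond the 2 with the smallest p in each family were named after their values were seen. The counts below are from the fit with all 6 libraries, and the ranges beside them are those over the 6 fits without 1 library.

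Unconventional myosins are motors that move along actin. Among them 5 of 17 rose (29.4%) and none fell, with a range of 2 to 5. Myo9b was at 125, 126 and 119 CPM with 10panx1 and 94.1, 93.4 and 100.2 CPM in controls (0.36, SE 0.0498, edgeR, adjusted p = 0.0013), and Myo1g had a log2 fold change of 0.25. Rab regulators, which control vesicle identity, had 6 of 43 rising (14%) and none falling, with a range of 2 to 6, led by Dennd11 at 0.33 and Dennd4b at 0.38. Of 28 Ras and Rap regulators 3 rose and none fell (range 2 to 4), and with the length trend removed 3 rose and 3 fell. Of 19 septin and tubulin genes 4 fell (21.1%), Tubb2a, Tubb4b, Tuba1b and the pseudogene Tubb4b-ps1, and 1, Septin9, rose. Tubulin genes and their pseudogenes share sequence, so how reads split between them is uncertain. Tubb2a was at 44.2, 38 and 33.1 CPM with 10panx1 and 61.6, 53.6 and 54.6 CPM in controls (-0.56, SE 0.0924, edgeR, adjusted p = 0.00255), and Septin9 had a log2 fold change of 0.35. The number of falls ran from 2 to 4 without 1 library. Dynll1 and Dynll2, the dynein light chains, also fell, by 0.33 and 0.30 on the log2 scale.

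Channels and pumps for calcium and other cations had 7 of 33 members rising (21.2%) and none falling, with a range of 3 to 7. The median over the 33 was 0.18 on the log2 scale, and 27 of them were positive. Itpr3, the inositol trisphosphate receptor that releases calcium from the endoplasmic reticulum, was at 131, 149.7 and 139 CPM with 10panx1 and 108, 112 and 119 CPM in controls (0.31, SE 0.0567, edgeR, adjusted p = 0.00413). Piezo1, a mechanically gated channel, was at 186, 203 and 189 CPM with 10panx1 and 153, 149 and 172 CPM in controls (0.29). The other 5 were Atp2b1, a calcium pump of the plasma membrane, at 0.21, Orai2, of store-operated entry, at 0.37, and Trpv2, Cacna1a and Mcoln3 at 0.21, 0.26 and 0.19. With the length trend removed 6 rose and the median was 0.12. At 6 h the median was 0.04. Of 16 potassium channel genes 2 rose, Kcnk2 and the calcium-activated Kcnn4, at 0.85 and 0.38. Of 16 genes with purinergic or pannexin symbols 1 was called, higher (6.25%, beside 5.06% of all tested genes): Entpd1, the ATP-hydrolysing enzyme CD39, at 0.59. None of 6 connexin and pannexin genes was called by edgeR or by DESeq2, and 1 had an unadjusted p under 0.05.

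Fc receptors bind antibodies, and paired receptors tune the activation of myeloid cells. Of 31 Fc and paired receptors 6 rose (19.4%) and none fell, with a range of 4 to 5, and 7 rose with the length trend removed. Fcgr2b, the inhibitory IgG receptor, was at 80, 96.2 and 95.4 CPM with 10panx1 and 58.4, 65.2 and 62.7 CPM in controls (0.54, SE 0.0718, edgeR, adjusted p = 0.00124). Fcgr3, an activating IgG receptor, was at 99.9, 102 and 103 CPM with 10panx1 and 85.6, 88.7 and 83.6 CPM in controls (0.24). Trem1, Pilra, Cd300lf and Cd300ld had log2 fold changes of 0.27, 0.33, 0.32 and 0.20. Of 19 genes with interleukin receptor symbols 5 rose (26.3%) and 1 fell, with 4 to 7 rising in the fits without 1 library. Il18rap, of the interleukin 18 receptor, was at 13.2, 12.3 and 13.4 CPM with 10panx1 and 7.82, 9 and 8.16 CPM in controls (0.64, SE 0.107, edgeR, adjusted p = 0.00281). Il10ra and Il13ra1 were at 0.22 and 0.27, and the remaining rises were Il12rb1 and the antagonist Il1rn. Il17ra was the one that fell, at 108, 94.6 and 102 CPM with 10panx1 and 128, 129.9 and 127 CPM in controls (-0.34). Of 32 genes grouped by symbol with the tumour necrosis factor superfamily 4 rose and none fell (range 1 to 4). They were the receptors Tnfrsf26, Tnfrsf9 and Tnfrsf1b, and Traf1, an adaptor of such receptors, at 0.19 to 0.28.

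Lipid and protein kinases relay signals from the membrane. Of 43 phospholipases and lipid kinases 4 rose (9.30%) and 1 fell (range of rises 4 to 5). Dgkd, which converts diacylglycerol to phosphatidic acid, was at 418, 434 and 429 CPM with 10panx1 and 303, 335 and 356 CPM in controls (0.37, SE 0.054, edgeR, adjusted p = 0.00156). Of 51 phosphoinositide enzymes 5 rose and 2 fell (range 2 to 5 rising and 2 to 3 falling), with Pik3cb, a catalytic subunit of phosphoinositide 3-kinase, at 0.31 and Pip5k1c, which makes the lipid PIP2, at -0.31. In the MAP kinase cascade 6 of 50 rose and 3 fell (rises from 2 to 8 without 1 library). Map3k14, the kinase NIK of the alternative NF-kB pathway, was at 17, 16.3 and 17.1 CPM with 10panx1 and 23.9, 24.7 and 25.7 CPM in controls (-0.56, SE 0.0773, edgeR, adjusted p = 0.0013), Map2k3 fell by 0.33 on the log2 scale and Map4k4 rose by 0.30. The 2 KSR scaffolds differed in sign, Ksr2 at 1.01 and Ksr1 at -0.33. Likewise Plxna1 and Plxna2, semaphorin receptors, were at 0.37 and -0.37. Plxna1 was at 144, 155 and 145 CPM with 10panx1 and 104, 116 and 123 CPM in controls, and Plxna2 at 24.9, 24.2 and 24.3 CPM with 10panx1 and 32.7, 31.1 and 31 CPM in controls. Among regulators of G protein signalling 6 of 37 rose and 2 fell, with 2 to 4 rising and 0 falling in the fits without 1 library. Rgs1 was at 129, 116 and 144 CPM with 10panx1 and 65.5, 88.4 and 89.2 CPM in controls (0.68).

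Lysine methyltransferases and demethylases set marks on histones. Of 44 such genes 8 rose (18.2%) and 1 fell, with 2 to 7 rising without 1 library. Kmt2d, a histone H3 lysine methyltransferase of enhancers, was at 92.9, 124 and 102 CPM with 10panx1 and 70.5, 67.7 and 70.2 CPM in controls (0.61, SE 0.0822, edgeR, adjusted p = 0.00129). Kdm6b, a demethylase induced in activated macrophages, was at 104, 147 and 124 CPM with 10panx1 and 77, 87.9 and 96.5 CPM in controls (0.52). Kmt2a, Kmt2b, Kmt2e and Setd1b, also placed in this family by symbol, were at 0.17, 0.37, 0.28 and 0.30. The median length of the family is 6.04 kb, and with the length trend removed 3 rose and 1 fell. Kmt2d then had a log2 fold change of 0.53, Kdm6b one of 0.47 and Kmt2b one of 0.31, and all 3 kept the call. Kmt2a, Kmt2e and Setd1b lost it, at 0.09, 0.23 and 0.24 (edgeR, adjusted p = 0.293, 0.0618 and 0.073). Among chromatin remodellers 3 of 46 rose and 1 fell (range 2 to 5 rising and 1 to 2 falling), with Chd5 at 0.76 and Brd2, a bromodomain protein, at -0.26. Of 28 histone genes, whose median length is 1.10 kb, 5 fell (17.9%), 1 of them H3f3c, a processed pseudogene in the annotation, and none rose, with a range of 1 to 6 and a count of 2 with the length trend removed. H2bc4 was at 92.2, 90.1 and 102 CPM with 10panx1 and 111, 119.5 and 117 CPM in controls (-0.29, SE 0.0564, edgeR, adjusted p = 0.00628).

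Nuclear receptors and their coregulators went both ways, 5 of 26 rising (19.2%) and 3 falling (11.5%), with 1 to 5 of each without 1 library. The retinoic acid receptor Rara and the glucocorticoid receptor Nr3c1 had log2 fold changes of 0.49 and 0.22. Nr4a1, an orphan receptor of the immediate early response, was at 43.4, 31.9 and 34.2 CPM with 10panx1 and 55.6, 51 and 48.3 CPM in controls (-0.50), and Nr4a2 was at -0.67. Zinc finger and BTB genes, the largest family with 360 tested, were called at 3.06% higher and 3.61% lower, beside 5.06% and 4.14% over all genes. Their 11 rises and 13 falls ran from 4 to 20 and from 4 to 13 without 1 library.

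Of 199 genes with solute carrier symbols, most of them transporters of small molecules, 13 rose (6.53%) and 18 fell (9.05%), 1 of the 18 being Slc7a6os, which shares only the symbol, with 6 to 16 rising and 6 to 13 falling without 1 library. Slc2a3, the glucose transporter GLUT3, was at 667, 770.2 and 724 CPM with 10panx1 and 517, 571 and 554 CPM in controls (0.40, SE 0.0551, edgeR, adjusted p = 0.0013). Slc23a2, a vitamin C transporter, was at 467, 522 and 477 CPM with 10panx1 and 353, 386 and 384 CPM in controls (0.38). Among those that fell were Slc30a1, which exports zinc, at -0.59, the lactate transporter Slc16a1 at -0.28, and the amino acid transporters Slc7a5 and Slc1a5 at -0.23 and -0.15. Of 34 ABC transporters 3 rose and none fell (range 2 to 3): Abcb1a, a drug efflux pump, at 0.57, Abca1, which exports cholesterol, at 0.35, and Abcc4 at 0.18. Of 62 glycosyltransferases 7 rose (11.3%) and 1 fell (rises 3 to 7), with the sialyltransferases St3gal1, St3gal5 and St3gal6 at 0.27, 0.25 and 0.29. Of 54 deubiquitinases 6 fell (11.1%) and 1 rose (falls 1 to 4 without 1 library), led by Usp10 at -0.24 and Usp38 at -0.28.

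**Figure D4:**
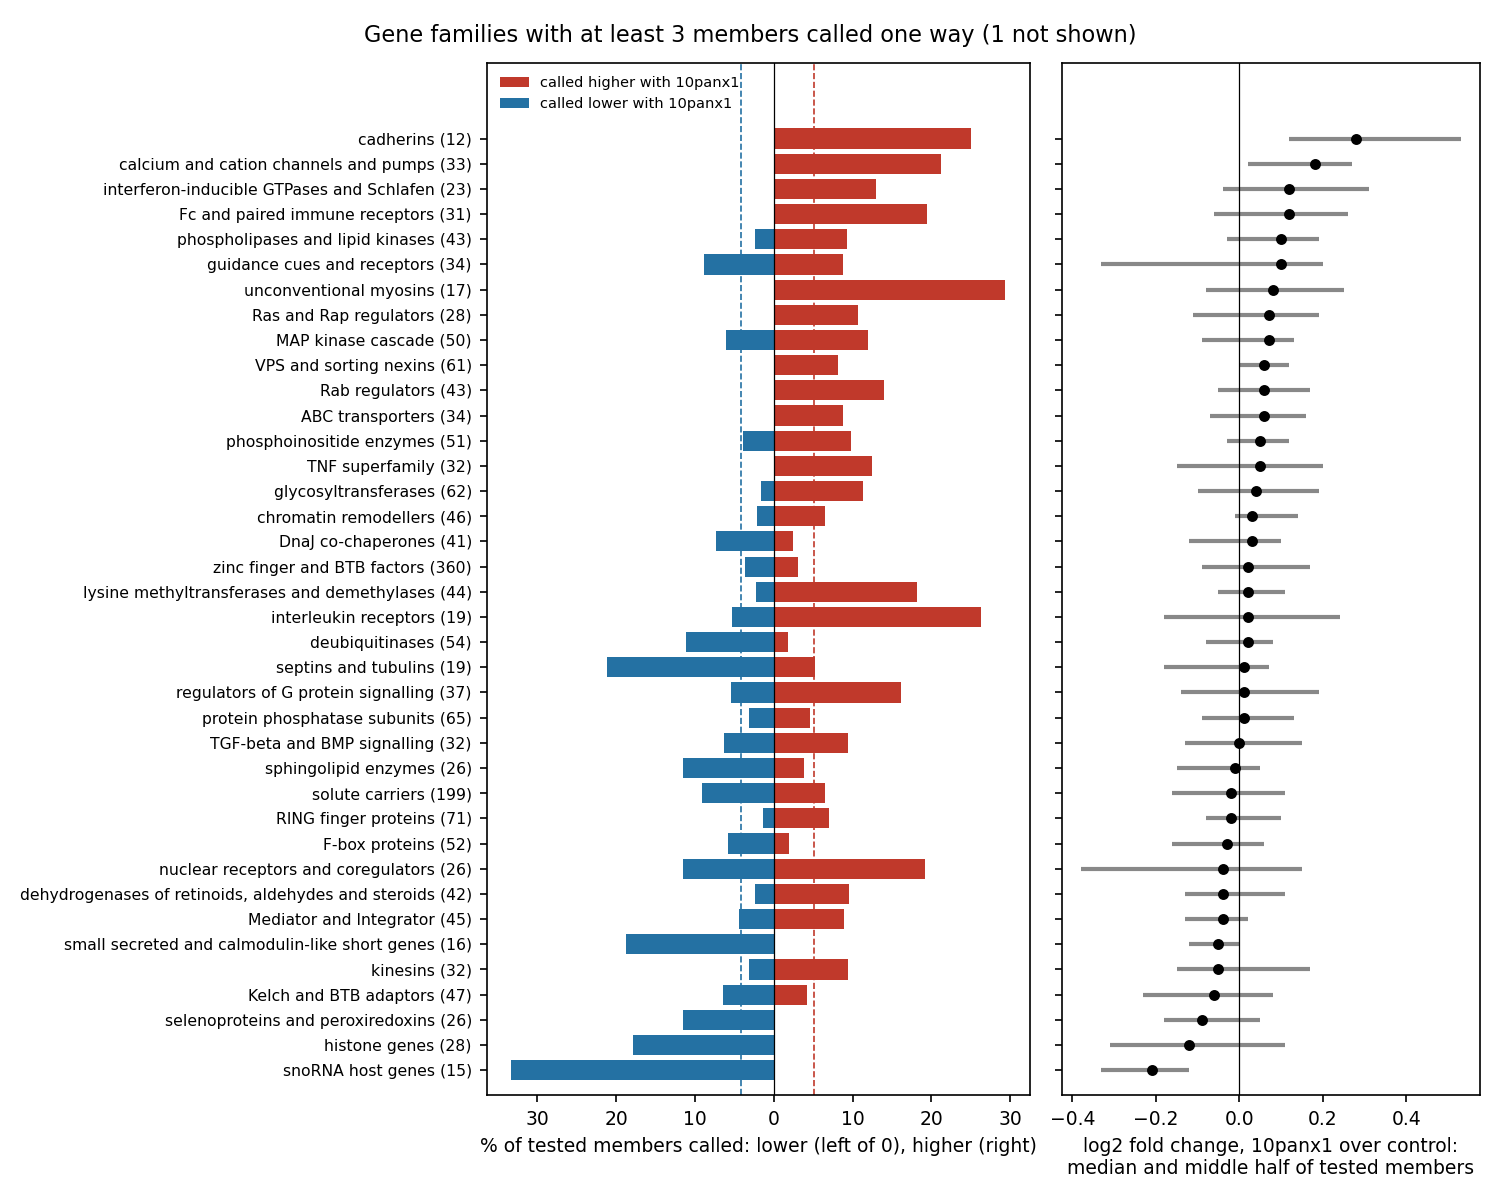
Left, percent of tested members called higher with 10panx1 (right of 0) or lower (left of 0) in 38 of the 39 families with at least 3 members called one way, number tested in parentheses; dashed lines mark 5.06% and 4.14% over all tested genes. Right, median and middle quartiles of the log2 fold change, 10panx1 over control, from 0.28 in cadherins to -0.21 in small nucleolar RNA host genes.

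Some families had no call. None of 55 translation initiation factors, 64 tRNA and rRNA modification genes, 32 kinases of the A, C, D and CaM groups and 13 poly(ADP-ribose) polymerases was called by edgeR, and the medians of these families lay between -0.01 and 0.05. Of these 164 genes 15 had an unadjusted p under 0.05, and DESeq2 called 1. For 4803 genes (35.9%) the 95% interval of the log2 fold change lay within 0.26 of 0, that is within 1.2-fold. This count does not leave out called genes: Hspa5, with an interval from -0.25 to -0.08, was called lower. For 50 genes (0.373%) the interval lay within 0.1 of 0. The most abundant of these 50 were Rplp0, Tubb5, Eif4a1, Atp5b, P4hb, Hdlbp, Cct3 and Ywhae. Atp5b, a subunit of ATP synthase, was at 1628, 1602 and 1585 CPM with 10panx1 and 1633, 1599 and 1588 CPM in controls. Rplp0, a ribosomal stalk protein, was at 2505, 2489 and 2662 CPM with 10panx1 and 2498, 2611 and 2576 CPM in controls. 

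Calls were unevenly spread over transcript length and level. Among the longest of 10 equal groups of tested genes, above 6.52 kb, 13.4% rose and 2.76% fell, and in the shortest group, up to 1.01 kb, 0.969% rose and 5.14% fell. The median log2 fold change was 0.053 in the longest and -0.087 in the shortest group. The difference between the medians of the longest and the shortest group, as deviation of each library from the mean of the 6, was 0.037, 0.106 and 0.055 in 10panx1 libraries and -0.038, -0.104 and -0.067 in controls, so the gradient itself separated the groups. Its source, in the cells or in the libraries, was not tested. With the length trend of each library removed, 8.51% rose and 4.93% fell in the longest group, and 1.79% rose and 2.83% fell in the shortest. That fit called 1176 genes, 621 higher and 555 lower, and 1060 of them were among the 1233. Of 4 equal groups by level, the highest, above 71.4 CPM, had 11.7% rising and 4.03% falling, while from 23 to 71.4 CPM 4.48% rose and 6.57% fell. In the lowest group, up to 3.68 CPM, 0.956% were called each way. Over the autosomes between 3.77% and 7.10% of tested genes rose and between 2.96% and 5.62% fell, and on the X chromosome 3.50% and 3%.

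**Figure D5:**
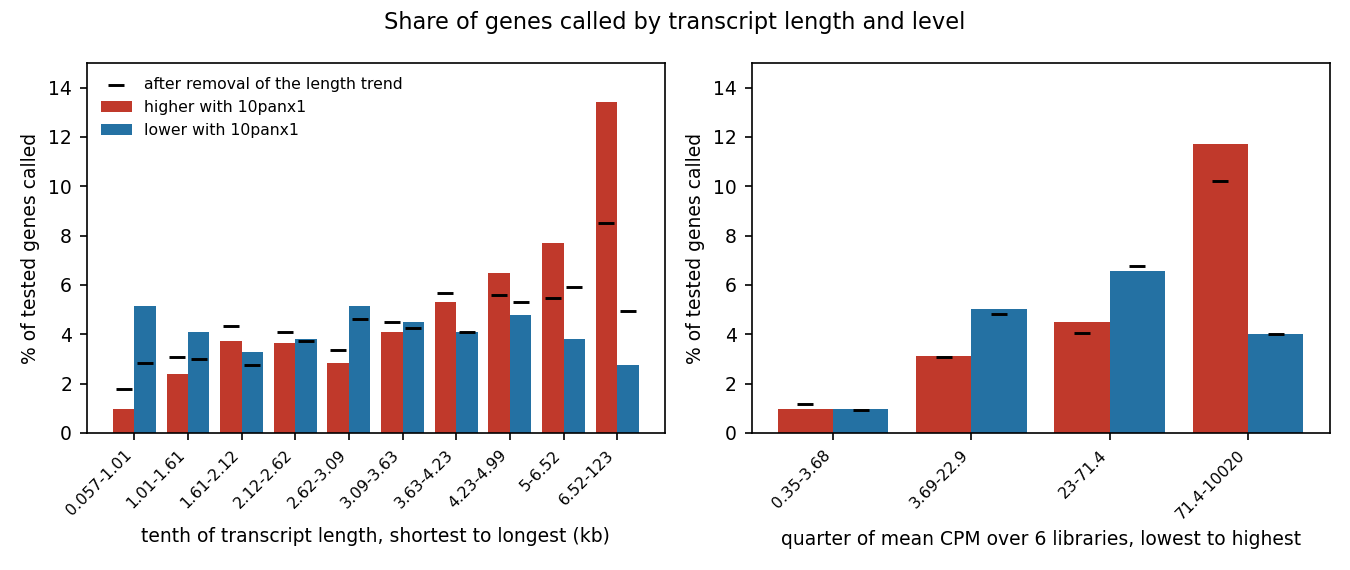
Percent of tested genes called higher or lower with 10panx1 by 10 groups of transcript length in kb (left) and 4 groups of mean CPM (right); black marks are the shares after the length trend was removed. The share called higher reaches 13.4% in the longest and 11.7% in the most abundant group.

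The 6 h libraries, 1 per group by title and with no replicate check, give values to set beside these. Of the 1233 genes called at 9 h, 1045 had a log2 ratio of the same sign at 6 h. Its median was 0.18 among genes that rose and -0.16 among genes that fell at 9 h, beside 0 over all tested genes. The share of equal sign among genes not called is not given, so the 1045 are no measure of agreement between the times. At 6 h Gpr35 was at 24.3 CPM with 10panx1 and 16 CPM in the control, Csf2rb at 193 CPM with 10panx1 and 156 CPM in the control, and Mylip at 8.49 CPM with 10panx1 and 9.26 CPM in the control. Kcnk2 was at 13.7 CPM with 10panx1 and 11 CPM in the control, and mt-Rnr2 at 205 CPM with 10panx1 and 139.6 CPM in the control. The largest ratio at 6 h among the genes taken by fold was that of Arg1, at 1.33 CPM with 10panx1 and 0.262 CPM in the control. Arc and Klf10 were lower with 10panx1 at 9 h. At 6 h Arc was at 3.40 CPM with 10panx1 and 2.53 CPM in the control, and Klf10 at 22 CPM with 10panx1 and 18.6 CPM in the control.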

How the data were processed

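RNA was extracted with TRIzol, selected for poly(A) and made into directional libraries, per the labels' protocols. Per the submitters' processing notes, FastQC, Trimmomatic, STAR, featureCounts, DESeq2 and the build GRCm38 were used, with no order or role given, and the handling of strand and of reads with several matches was not stated. The authors deposited, per gene and library, whole read counts and TPM, each gene kept once here. Other value columns were not needed.

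Genes were filtered with filterByExpr, scaled by TMM and tested on the deposited counts with edgeR 4.0.16 in R 4.3.3 (quasi-likelihood test, Benjamini-Hochberg adjusted p under 0.05), with 3 libraries per group and no covariate. Transcript lengths were recovered from the deposited counts and TPM. Alternatives were RLE and upper-quartile scaling, other filters, DESeq2 1.42.0, limma 3.58.1 on counts (voom) and on the authors' TPM, glmTreat, all 8 libraries, a block, removal of the length trend and leaving out each library. The fit was tested on simulated data of 13177 genes, with noise drawn separately for each gene. Per fold size 50 genes were changed, all taken from genes averaging 50 or more counts. Of these it recovered 52% at 1.25-fold, 96% at 1.5-fold and 100% at 2-fold, and 7.94% of its calls were false in that 1 run. Recovery among genes with fewer counts was not tested.

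The genes, families and motifs were chosen with earlier results of these data known. Named were Panx1 and Src; the 15 largest rises and falls by fold among called genes without overlap, averaging 50 or more counts, clone and pseudogene symbols left out; the 10 each way with the largest difference in CPM; the 8 each way with the smallest p; up to 5 clone or pseudogene symbols each way; the 2 members with the smallest p of each family of at least 8 tested genes with at least 3 called one way; genes seen in 1 group alone; and the 8 most abundant genes with an interval within 0.1 of 0. The text prints a part of these. Some genes and 1 family that the rule names are not reported here. Promoters came from RefSeq (GRCm38.p6), matched by gene ID and then symbol.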

Additional observations from a re-analysis of the deposited data

Results flagged for a closer look

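For 21 of the genes the rule names, the groups did not overlap at 9 h and the 1 library pair at 6 h differed in the opposite direction. The library titled 10panx1 at 6 h has a treatment label without the peptide. The edgeR interaction of treatment and time called none of 15331 genes (874 had an unadjusted p under 0.05), with adjusted p from 0.464 for Klf10 to 0.909 for Ptpn5 among the 21, but each 6 h group holds 1 library, whose spread is assumed to be that of the 9 h groups, so nothing is drawn from it. Of the genes that fell at 9 h, the log2 ratio of 10panx1 over control at 6 h was 0.41 for Arc, 0.13 for Sp4, 0.24 for Fam43a, 0.01 for Rps18, 0.24 for Klf10, 0.03 for Fbxo33, 0.04 for Usp10, 0.02 for Usp38, 0.02 for Ints8 and 0.09 for Il17ra. Of the genes that rose at 9 h, it was -0.06 for Celsr3, -0.03 for Mir142hg, -0.22 for Acacb, -0.07 for Ptpn5, -0.09 for Gm12968, -0.10 for F730311O21Rik, -0.03 for Kmt2d, -0.03 for Snx25, -0.03 for Fcgr3, -0.07 for Ppp1r10 and -0.05 for Hsd17b2.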

How the results depend on the processing

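Beside 1233 called genes, 678 higher and 555 lower, RLE scaling, upper-quartile scaling, a mean of at least 50 counts, DESeq2, limma-voom, all 8 libraries and removal of the length trend gave 1039 to 1261. With no filter 1792 were called and 882 were lower. Against a fold of 1.2, glmTreat called 40, 23 higher and 17 lower. On log2(TPM + 1) limma called 368, 201 higher and 167 lower, and on log2(TPM + 0.1) 371, 205 higher and 166 lower. With no filter on TPM limma called 0, 0 higher and 0 lower, with 3422 of 27104 genes at an unadjusted p under 0.05; the cause was not tested. Without 1 library, 598 to 1433 were called, 323 to 813 higher and 262 to 620 lower. The fit with the replicate block called 1850, 1007 higher and 843 lower, the 1233 among them. Deviations of same-numbered libraries correlated at 0.13, -0.01 and 0.09, and 4 of 6 libraries correlated best with their own number. These values cannot decide whether the numbers pair the libraries. The labels state no pairing, and the main fit used none. Of the 147 named calls, none changed direction, 140 were kept by DESeq2, 144 with the length trend removed, 74 and 75 by limma on log2(TPM + 1) and log2(TPM + 0.1), 0 on TPM with no filter, 23 by glmTreat and 119 to 145 without 1 library. Panx1, not called at -0.02, ran from -0.09 to 0.07 without 1 library, with the sign changed to 0.01 without control replicate 1 and to 0.07 without 10panx1 replicate 3. With 3 libraries a group, changes of 1.25-fold in genes averaging 50 or more counts were recovered in simulation at 52%. Many small changes would therefore be missed.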
